A study of Mus musculus with 6 samples.

Results

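Thrombospondins, tenascins and fibronectin are secreted glycoproteins of the extracellular matrix, and 6 of their genes (Thbs1, Thbs2, Thbs3, Tnc, Tnxb and Fn1) were probed on a small expression array of mouse soleus muscle. The members were taken by annotated gene symbol and not by any measured value, which gave 7 of the 223 probes and 6 of the 203 named genes, because Fn1 has 2 probes. The muscle came from C57Bl/6 mice whose hindlimbs had been suspended, so that the soleus, a slow postural muscle, no longer carried body weight. All 6 arrays belong to this suspended group, are titled wt, and carry the codes HUR and HS7, which the labels do not explain. Each received 3 microgram of total RNA from muscle cryosections. The labels used here state neither age, sex and duration of suspension nor whether each array stands for its own animal, so spread between arrays may be partly technical. Loaded muscle was not analysed here, and the values below are therefore levels in unloaded soleus and their variation between arrays, with no comparison of conditions.

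The 6 proteins are known as matricellular or fibrillar parts of the matrix around muscle fibres, vessels and tendon. Thbs1 and Thbs2 encode closely related trimeric thrombospondins that bind CD36, CD47 and integrins, restrain the growth of capillaries and, for Thbs1, activate latent TGF-beta. Thbs3 encodes a pentameric thrombospondin that lacks the properdin-like repeats of those proteins. Tnc encodes tenascin-C, a modulator of cell adhesion that is found at the junction of muscle and tendon and responds to mechanical load, and Tnxb encodes tenascin-X, which organises collagen fibrils in loose connective tissue. Fn1 encodes fibronectin, which integrins assemble into fibrils and which links cells to collagen and to other matrix proteins.

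Replicate 1 stood apart from the other arrays before any member was considered. Its deposited intensities summed to 37.5, against 15.3 to 18.5 on replicates 2 to 6. Its median intensity was 0.0061, against 0.0036 to 0.0055, so the median stood out less than the sum. Its Pearson correlations with the other arrays over the 171 measured probes lay between 0.857 and 0.911, and the 10 pairs of other arrays had correlations between 0.957 and 0.977. The 6 muscle fibre genes probed (Myh7, Myh2, Myh1, Myh4, Mb and Des) were above 0 on all arrays. So were 76.7% of all probes, which makes this a weak check of the tissue label, and it does not single out soleus. Because replicate 1 stood apart, each member's result is given with that array and without it.

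Of the 7 member probes, 5 gave a value above 0 on all 6 arrays, namely those of Thbs1, Thbs2, Tnc and Tnxb and 1 of the Fn1 probes. Over the whole array 76.7% of probes did so, and the members' share is near this background. A value at or below 0 means that the spot was no brighter than its background, and is treated as not detected. Thbs3 was above 0 on 3 arrays, at 0.0014 on replicate 1, 0.0006 on replicate 3 and 0.0005 on replicate 4. It was at -0.0002, 0.0000 and -0.0001 on replicates 2, 5 and 6. None of the Thbs3 values exceeded the size of the most negative value on the same array, which was 0.0020 in size on replicate 1, so Thbs3 was not separable from background on any of the 6 arrays.

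The pair of Fn1 probes gave discordant readings although the annotation ties both to the same sequence record. Probe 9D was above 0 on all 6 arrays, at 0.0292, 0.0083, 0.0178, 0.0145, 0.0151 and 0.0134 on replicates 1 to 6. Probe 4D was above 0 on replicate 4 alone, at 0.0002. On the other arrays it was at -0.0013, -0.0006, -0.0001, -0.0005 and -0.0004 (replicates 1, 2, 3, 5 and 6). The highest 4D reading was thus far below the lowest 9D reading. Replicate 1 was the highest array for 9D and the lowest for 4D. The probes' own sequences were not used here, so which part of the transcript each one reads is unknown. Fibronectin is described below through 9D only, and its detection rests on that single probe.

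**Figure D1:**
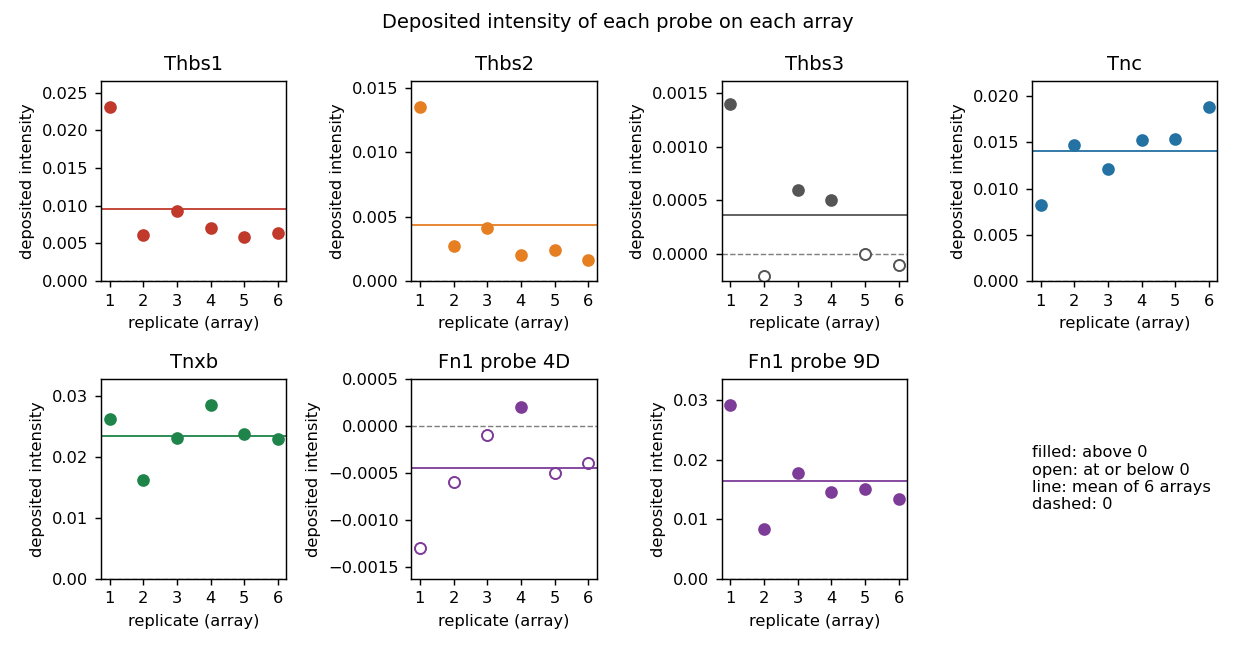
Deposited intensity (arbitrary linear units, vertical axis from 0 unless values lie below it) of the 7 member probes on each of the 6 arrays (horizontal axis); filled points lie above 0, open points at or below 0, and the coloured line is the mean of the 6 arrays. Thbs1, Thbs2 and Fn1 probe 9D are highest on replicate 1, Tnc is lowest there, and Thbs3 and Fn1 probe 4D lie around 0.

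Thbs1 and Thbs2 were both highest on replicate 1. The deposited Thbs1 intensity was 0.0231 on replicate 1 and 0.0061, 0.0093, 0.0070, 0.0058 and 0.0064 on replicates 2 to 6. Replicate 1 was 3.61 times the median of the other arrays, which lay close together. The deposited Thbs2 intensity was 0.0135 on replicate 1 and 0.0027, 0.0041, 0.0020, 0.0024 and 0.0016 on replicates 2 to 6. Replicate 1 was here 5.62 times the median of the others, and replicate 3 was the next highest array for both genes. The lowest Thbs2 value, 0.0016 on replicate 6, was not far from background, since the most negative value on that array was -0.001. On replicate 2, with Thbs2 at 0.0027, the most negative value was -0.0013. Rounding to 0.0001 amounts to at most 3.1% of the lowest Thbs2 value and is the smaller limit.

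Levels that allow for array brightness were obtained as log2 of the intensity minus the array's median log2 over the 171 measured probes, so that 0 is the median probe of the array and a step of 1 is a doubling. On this log2 scale Thbs1 had a level of -0.03 ± 0.57 (SD, n = 6), and of -0.23 ± 0.29 without replicate 1 (n = 5). Thbs2 had a level of -1.39 ± 0.91 (SD, n = 6), and of -1.72 ± 0.49 without replicate 1 (n = 5). A level depends on the probe as well as the transcript, so the levels of different genes are not set against each other.

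Tenascin-C behaved in the opposite way. The deposited Tnc intensity was 0.0082 on replicate 1, the lowest of the 6, and 0.0147, 0.0121, 0.0152, 0.0154 and 0.0188 on replicates 2 to 6. Replicate 1 was at 0.54 times the median of the other arrays, although its summed intensity was the highest. The Tnc level was 0.68 ± 0.67 on the log2 scale (SD, n = 6), and 0.91 ± 0.39 without replicate 1 (n = 5). In bulk muscle, fewer cells that make a transcript and less of it per cell cannot be told apart, which holds for every member.

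Tenascin-X was the steadiest of the measured members under median centring. The deposited Tnxb intensity was 0.0262, 0.0163, 0.0231, 0.0286, 0.0238 and 0.0230 on replicates 1 to 6, and replicate 1 lay within the range of the others. Its level was 1.45 ± 0.26 on the log2 scale (SD, n = 6), and 1.5 ± 0.25 without replicate 1 (n = 5). With arrays centred on 4 reference genes (Gapdh, Ywhaz, Rps29 and Pgk1), or scaled to equal totals, the SD of Tnxb was 0.51 and 0.46, against 0.24 and 0.35 for Thbs1 and 0.29 and 0.39 for Fn1. Without centring (SD 0.28), with quantile normalization (0.15) and with a pseudocount (0.22) Tnxb again had the smallest SD of the 5 members. Leaving out replicate 1 changed this without centring, where the SD was 0.29 for Tnxb, 0.23 for Tnc and 0.27 for Thbs1. With quantile normalization (0.13) and a pseudocount (0.22) Tnxb stayed the smallest without that array. Fibronectin (probe 9D) had a level of 0.84 ± 0.43 on the log2 scale (SD, n = 6), and of 0.74 ± 0.39 without replicate 1 (n = 5). Its lowest array was replicate 2, at 0.15, and its highest was replicate 1, at 1.34.

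The promoters of Thbs2 and Tnc are shown because the ratio of these genes varied more between arrays than that of any other pair of members. RefSeq windows on GRCm38.p6 were found for 4 of the 6 genes (Thbs2, Thbs3, Tnc and Tnxb), and the 250 bases before the annotated start are printed 5′ to 3′ on the gene's strand. Thbs2 lies on the minus strand at chr17:14694263-14694512. Tnc lies on the minus strand at chr4:64046937-64047186, which is the window of the more downstream of its 2 listed starts. Capitals mark matches on either strand to any of 5 promoter motifs. The first is the TATA box, searched as TATAAA, which positions the transcription machinery. The next are the CCAAT box, searched by those letters, and the GC box bound by Sp-family factors, searched as GGGCGG. The last are the AP-1 site bound by Jun and Fos proteins, searched as TGANTCA, and the CArG box bound by serum response factor.
Thbs2: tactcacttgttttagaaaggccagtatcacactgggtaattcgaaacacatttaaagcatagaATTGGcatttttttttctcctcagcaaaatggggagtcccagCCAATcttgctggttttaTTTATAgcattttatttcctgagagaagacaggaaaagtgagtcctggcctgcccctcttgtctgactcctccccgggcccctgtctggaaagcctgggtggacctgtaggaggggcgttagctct
Tnc: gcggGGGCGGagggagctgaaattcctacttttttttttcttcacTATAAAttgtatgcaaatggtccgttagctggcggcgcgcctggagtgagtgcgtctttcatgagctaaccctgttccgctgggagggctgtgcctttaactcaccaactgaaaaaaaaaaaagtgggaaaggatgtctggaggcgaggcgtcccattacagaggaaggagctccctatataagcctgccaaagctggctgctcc

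The Thbs2 window held 3 matches, which were a CCAAT box on each strand and the TATA letters on the opposite strand, 126 to 121 bases before the start. The Tnc window held 2, a GC box 246 to 241 bases and TATA letters 205 to 200 bases before the start. No match overlapped another. Among 32851 windows of this length, CCAAT letters occur in 33.8%, the GC box in 32.7% and TATAAA in 12.4%, so these matches are common ones. The AP-1 letters occur in 6.75% of windows and the CArG letters in 1.47%. Of the member windows, the AP-1 letters were found in that of Tnxb, as TGAGTCA on the plus strand 55 to 49 bases before the start. A match is a description of the letters and was not linked to the measured levels.

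How much a member varied between arrays was set beside all 171 measured probes, whose median SD was 0.48 on the log2 scale with all arrays and 0.34 without replicate 1. With all arrays Thbs2 (SD 0.91), Tnc (0.67) and Thbs1 (0.57) lay above that median, and Fn1 (0.43) and Tnxb (0.26) below it. An SD below 0.5 was thus found for 2 of the 5 measured members, against 52.0% of all measured probes. Of the 171 probes, 144 had a smaller SD than Thbs2 and 30 a smaller SD than Tnxb. Without replicate 1, Thbs1 (0.29) and Tnxb (0.25) lay below the median of 0.34, and Thbs2 (0.49), Tnc (0.39) and Fn1 (0.39) above it. The SD of Thbs1 fell by the largest factor of the 5 when that array was left out. Thbs2 kept the largest SD of the 5 members under median centring, whereas Tnc had the largest with the reference genes (0.95) and with equal totals (0.86). The Thbs2 intensities were low, at 0.0016 to 0.0041 on replicates 2 to 6, and with a pseudocount its SD was 0.61. Without replicate 1 the SD with a pseudocount was 0.29 for Thbs2, against 0.33 for Tnc and 0.33 for Fn1.

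**Figure D2:**
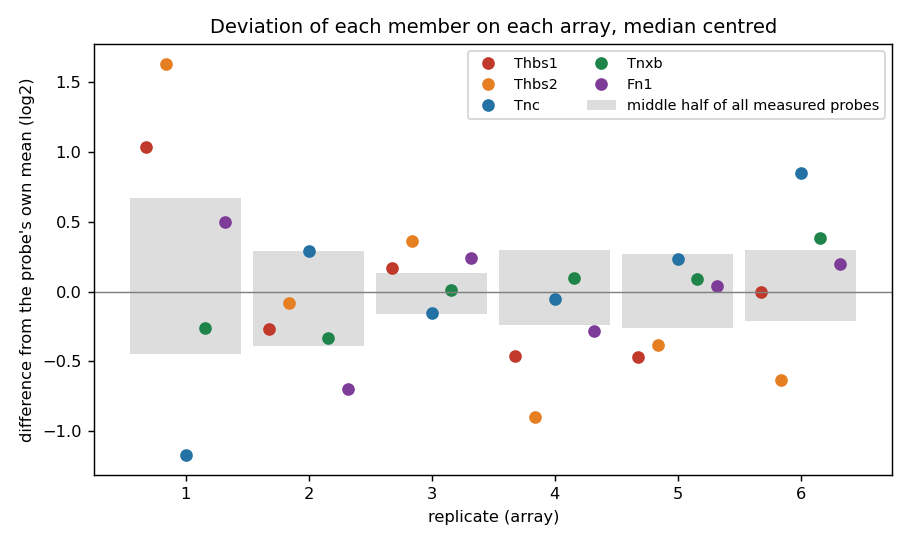
Difference of each measured member from its own mean over the 6 arrays (log2, median centred) on each array; grey bars span the interquartile range of all 171 measured probes on that array. On replicate 1 Thbs2 is 1.63 and Thbs1 1.03 above their means and Tnc is at -1.17, all outside the grey bar, and Tnc is 0.85 above its mean on replicate 6.

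Replicate 1, set against the mean of replicates 2 to 6, differed with opposite signs within the family. The difference was 1.95 for Thbs2, 1.24 for Thbs1 and 0.60 for Fn1 on the log2 scale, and -1.40 for Tnc and -0.31 for Tnxb. The median over all measured probes was 0.13. A single array against 5 has no replicate check, so these are values without a test. Of the 5 members, 2 lay more than 1 log2 unit higher on replicate 1, as did 17.0% of measured probes, and 1 lay more than 1 unit lower, as did 16.4%. Replicate 1 was the highest array for 3 of 5 members (39.2% of measured probes) and the lowest for 1 (28.1%). Large departures in both directions were thus common on that array, and the members are few.

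The direction for Thbs1, Thbs2 and Tnc did not depend on how arrays were scaled in the 6 settings run. These were median centring, no centring, equal totals, quantile normalization, centring on the reference genes, and a pseudocount before the log. In all 6, replicate 1 was the highest array for Thbs1 and Thbs2 and the lowest for Tnc. The Thbs1 difference ranged from 0.41 to 1.76, that of Thbs2 from 1.12 to 2.47 and that of Tnc from -2.23 to -0.88. Fn1 was at -0.23 with the reference genes and at 0.02 with equal totals, and Tnxb was at 0.21 without centring, so their sign against 0 changed with the scaling. The median over all measured probes itself moved from -0.71 with the reference genes to 0.65 without centring. The 4 reference genes were themselves higher on replicate 1 under median centring, by 0.18 (Pgk1) to 1.59 (Ywhaz). Relative to that median, Thbs1 was 1.11 higher, Thbs2 1.83 higher and Fn1 0.48 higher under every setting that only shifts whole arrays, with Tnc at -1.53 and Tnxb at -0.43. Such shifts cancel in these values and in the list medians relative to all measured probes below, so their sameness is no check of stability.

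**Figure D3:**
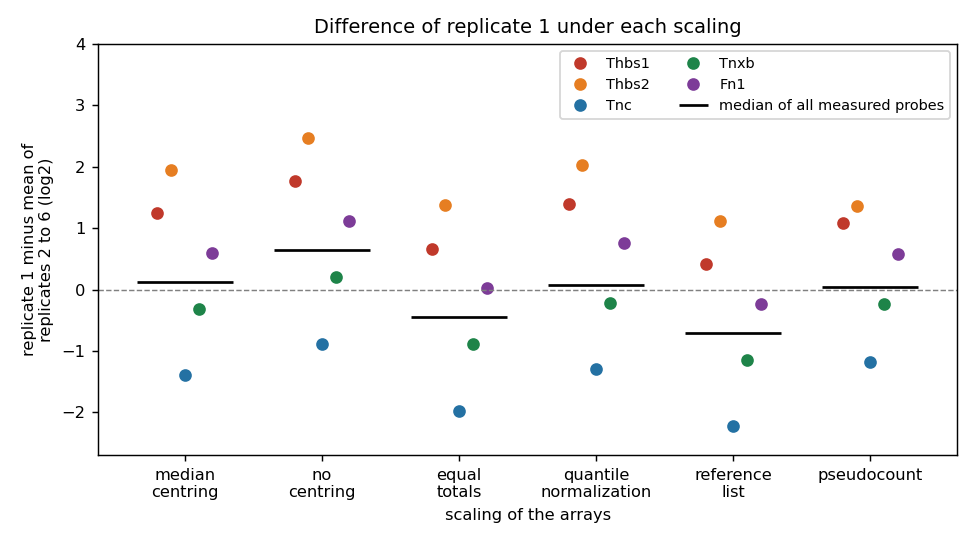
Replicate 1 minus the mean of replicates 2 to 6 (log2, vertical axis) for the 5 measured members under 6 scalings of the arrays (horizontal axis); black bars mark the median over all measured probes. Thbs2 and Thbs1 stay above 0 and Tnc stays below 0 under each scaling, Fn1 falls to -0.23 with the reference list, and Tnxb rises to 0.21 without centring.

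Ratios between members within an array are not changed by scalings that multiply a whole array. The ratio of Thbs2 to Tnc intensity on replicate 1 was 10.6 times its median over the other arrays. On replicates 2 to 6 it was 1.18, 2.17, 0.844, 1.00 and 0.546 times that median, all well below replicate 1. With a pseudocount of 0.0020, an alternative chosen after seeing the data, the replicate 1 value was 6.01 times and with quantile normalization 9.93 times, against at most 1.71 and 2.37 times on any other array. The Thbs1 to Tnc ratio on replicate 1 was 6.79 times its median over the other arrays, where it was between 0.82 and 1.85 times. The Thbs1 to Thbs2 ratio moved far less, and was 0.708 times its median on replicate 1 and between 0.935 and 1.66 times on the others. Thbs1 against Fn1 was at 1.64 times on replicate 1 and 1.52 times on replicate 2, so that replicate 1 was not set apart. The SD of the log2 ratio was 1.52 for Thbs2 to Tnc, 0.45 for Thbs1 to Thbs2 and 0.40 for Thbs1 to Fn1. The median SD was 0.73 over all 14535 pairs of measured probes, and the same over the 10 member pairs. Without replicate 1 the SD of the Thbs2 to Tnc ratio was 0.73, still the largest of the 10 member pairs. It was then 0.46 for Thbs1 to Tnc and 0.39 for Thbs1 to Thbs2, which lie close together. The median over all pairs is for all arrays, and none was computed without replicate 1, so these values have no background beside them.

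**Figure D4:**
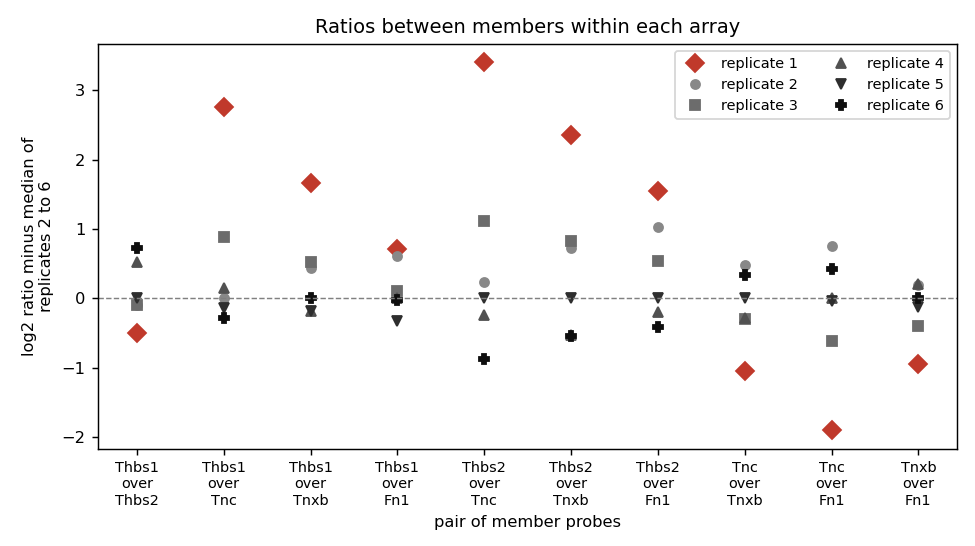
Log2 ratio of each of the 10 pairs of measured members within an array, minus its median over replicates 2 to 6 (vertical axis); red diamonds are replicate 1 and grey symbols the other arrays. Replicate 1 lies at 3.40 for Thbs2 over Tnc and 2.76 for Thbs1 over Tnc, far from the other arrays, and at -0.50 for Thbs1 over Thbs2.

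Whether members varied together over the arrays was tested for the 10 pairs, with two-sided exact permutation p-values adjusted over all 14535 pairs of measured probes. None of the 10 pairs passed an adjusted p of 0.05, nor did any pair on the array. Even at the smallest exact p of 0.0014, at least 404 pairs would have to pass together for any to pass. The count of 0 therefore does not show that members varied independently. Under median centring 1 of the member pairs had an unadjusted exact p under 0.05, as did 11.7% of all pairs. That pair was Thbs1 and Thbs2, with a Pearson r of 0.91 (exact permutation p = 0.025, adjusted p = 0.361, n = 6) and a Spearman rho of 0.71 (exact p = 0.1361, adjusted p = 0.681). Its r was 0.61 without replicate 1, and 0.68 without replicates 1 and 5, the arrays farthest from the Thbs1 median. Thbs2 and Tnc had an r of -0.84 (exact permutation p = 0.0528, adjusted p = 0.418) and a rho of -0.60 (exact p = 0.2417, adjusted p = 0.774). Without replicate 1 that r was -0.36, and without replicates 1 and 4, the farthest from the Thbs2 median, it was -0.91 over 4 arrays. For Thbs1 and Tnc r was -0.73 (exact permutation p = 0.1347, adjusted p = 0.502) and rho -0.49 (exact p = 0.3556, adjusted p = 0.83). That r was 0.11 without replicate 1, and so rested on it, and 0.13 without replicates 1 and 5. Among the remaining pairs r ran from -0.64 for Thbs2 and Tnxb to 0.71 for Thbs1 and Fn1. With arrays centred on the reference genes, r for Thbs1 and Fn1 was -0.13. All pairs share the same 6 arrays and any array-wide effect.

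The receptors and partners of these proteins were represented by 8 of 25 listed genes, and all 8 were measured. Their SDs ran from 0.17 (Vldlr) to 0.81 (Cd44, the hyaluronan receptor) on the log2 scale. Cd44 was near background, at 0.0004 to 0.0020 on replicates 2 to 6, which limits its SD and its difference on replicate 1. Cd36, the thrombospondin and fatty acid receptor, was at 3.25 ± 0.53 (SD, n = 6). Itgb1, the integrin subunit shared by fibronectin, laminin and collagen receptors, was at 1.95 ± 0.38 (SD, n = 6), and its SD was 0.14 without replicate 1. Vldlr, a lipoprotein receptor that also binds thrombospondin, was at 1.93 ± 0.17 (SD, n = 6). On replicate 1, 4 of the 8 were higher than the mean of the other arrays and 4 lower, with differences from -0.89 to 1.45 under median centring, where 53.2% of all measured probes were higher. Over the 6 scalings 2 to 5 of the 8 were higher, and their median difference relative to all measured probes was -0.26 to -0.12.

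Other structural matrix genes on the array were laminin chains. Of 32 listed genes 7 were probed and 6 were measured, the exception being Lamb1. On replicate 1, 5 of the 6 were lower than the mean of the others and 1 higher under median centring, and 1 to 4 were higher over the 6 scalings. Relative to all measured probes their median difference was -0.36 to -0.25 over these scalings. The higher one under median centring was Lamc1, the common gamma chain, which was at 0.80 ± 0.66 (SD, n = 6) and 1.59 higher on replicate 1. Lama3, at 0.49 ± 1.28 (SD, n = 6), was the most variable, with a difference on replicate 1 of -2.14. Lamb2 was at 0.73 ± 0.32 (SD, n = 6).

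Proteases and their inhibitors, which turn the matrix over, were represented by 15 of 26 listed genes, of which 11 were measured. Mmp3, Mmp8, Mmp9 and Plg were not above 0 on all arrays. Of the 11, 9 were higher on replicate 1 and 2 lower under median centring, with a median difference of 0.87 against 0.13 over all measured probes. Those higher include Plat, Mmp10 and Mmp11, which were near background. On replicates 2 to 6 they were at 0.0003 to 0.0011, 0.0002 to 0.0009 and 0.0002 to 0.0012. The most negative values on those arrays ran from -0.0013 to -0.0005. Over the 6 scalings 6 to 11 were higher, and the list's median stayed 0.33 to 0.90 above that of all measured probes. Timp3, the matrix-bound inhibitor of metalloproteinases, was at 1.21 ± 0.38 (SD, n = 6) and 0.87 higher on replicate 1. Timp1 was at -0.56 ± 0.57 (SD, n = 6) and 1.10 higher there, and Timp2 was at 2.03 ± 0.26 (SD, n = 6) with a difference of -0.16.

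Regulators known to act on these genes were represented by 14 of 32 listed genes, of which 8 were measured (Tgfb1, Srf, Jun, Fosl2, Pdgfb, Pdgfra, Pdgfrb and Vegfa). Tgfb1, the growth factor that raises fibronectin and other matrix genes in many cells, had an SD of 0.13, the smallest of the 8, at a level of -0.23. The AP-1 subunit Jun was at 2.44 ± 0.37 (SD, n = 6) and the related Fosl2 at 0.60 ± 0.20 (SD, n = 6). Srf, the factor that binds CArG boxes, was at 1.64 ± 0.89 (SD, n = 6), with a difference on replicate 1 of -1.11. On that array 5 of the 8 were higher and 3 lower, with a median difference of 0.22, and 1 to 7 were higher over the 6 scalings, with a median 0.08 to 0.26 above that of all measured probes. The inflammatory cytokines Il6 and Il1b, Junb, Fosl1, Pdgfa and Fgf2 were not above 0 on all arrays.

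Markers of the cells that could contribute these transcripts also differed on replicate 1. The 6 muscle fibre genes were all higher there, by 0.46 to 1.85 on the log2 scale under median centring. Over the 6 scalings the number higher ran from 3 to 6, and the list's median was 0.02 to 0.88 above that of all measured probes. Their summed deposited intensity was 6.61 against 2.29 to 3.01 on the other arrays. Such sums do not allow for array brightness, and all probes together summed to 37.5 on replicate 1 against 15.3 to 18.5. Of 5 endothelial genes (Pecam1, Cdh5, Kdr, Tek and Flt1), 4 were lower on replicate 1 and 1 higher under median centring, with differences from -2.60 to 0.14. Their summed deposited intensity was 0.0711 against 0.0698 to 0.0871. Over the scalings 0 to 2 of these were higher, and their median relative to all measured probes was -0.69 to -0.52. The single fibroblast marker probed, Pdgfra, was 0.61 higher on replicate 1, and the pericyte marker Pdgfrb had a difference of -0.27. Fabp4, found in fat cells and capillaries, was 0.88 higher. No listed tendon or nerve marker was on the array, and each of the immune markers probed, the cytokines Il6 and Il1b, was above 0 on 2 of the 6 arrays, at no more than 0.0005. The part of cell composition in the Thbs1, Thbs2 and Tnc values was not tested. The probe labels of Tnxb, Thbs1, Thbs2 and Thbs3 run consecutively from 10G to 10J. Besides these members, 3 measured probes carry a label with 10, and their differences on replicate 1 were 1.46 (Rpsa), 0.46 (Mb) and -2.60 (an unnamed probe). Over all label numbers the median difference ran from -1.74 to 1.03, and it was 0.06 for label 4, which holds Tnc, and 0.07 for label 9, which holds Fn1 probe 9D. Whether labels give places on the array is not stated, and the part of position was not tested.

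The genes whose pattern over the 6 arrays was most like each member's were found by the root mean square difference between deviations from each probe's own mean, on the log2 scale. For Thbs1 these were Cdkn1a, a cell cycle inhibitor (0.12), Itgb1 (0.21) and Timp3 (0.21), against a median of 0.58 over all other measured probes. For Thbs2 they were Csf2ra, a cytokine receptor chain (0.28), Ywhaz (0.37) and Myh2 (0.39), against 0.87. For Tnc they were Ang2, an angiogenin ribonuclease (0.12), Ccna1, a cyclin (0.25), and Angpt2, an angiopoietin (0.32), against 0.76. Replicate 1 was the extreme array of each of these genes, high for the neighbours of the thrombospondins and low for those of Tnc. For Tnxb they were Cdh5, the endothelial cadherin, Hadh, an enzyme of fatty acid oxidation, and Timp2 (0.16 each), against 0.50. For Fn1 they were Dgat1, which makes triglyceride (0.17), and the glucose transporters Slc2a1 (0.18) and Slc2a4 (0.20), against 0.52. Without replicate 1, 4 of these 15 genes were still among the 3 nearest of their member. These were Cdkn1a for Thbs1, Csf2ra for Thbs2, Ang2 for Tnc and Dgat1 for Fn1.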

How the data were processed

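The deposited table gives 1 intensity per probe and array. Judged from the deposited intensities, the authors had subtracted background, since 171 of 1338 values lie at or below 0, and the values are linear. Their scaling, scanner and array maker were not named in the sources used here. Genes were taken from GEO's platform annotation, and all 7 member probes matched RefSeq (GRCm38.p6) by gene number and symbol. No probe positions are printed, since no build is named.

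A probe was measured when above 0 on all 6 arrays. Measured intensities were converted to log2 without a pseudocount and centred on each array's median. Spread is the SD over arrays. Pairs were tested by two-sided exact permutation over 720 pairings (smallest possible p 0.0014) and adjusted by Benjamini-Hochberg over all 14535 pairs, where the plan had named the member pairs. Other genes named were the 3 nearest to each member and up to 3 of the brightest measured genes of each fixed list; further genes are named as list members, as extremes of a list or in counts. Members and lists were chosen with earlier results of these data known. No counts exist for arrays, and their number limits the precision. Alternatives were other scalings, a pseudocount of 0.0020, a stricter detection rule, and each array left out with the same 171 probes and centring. Python 3.11.15, numpy 2.4.6, pandas 2.3.3 and scipy 1.17.1 were used, and the scripts were tested on simulated data.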

Additional observations from a re-analysis of the deposited data

Results flagged for a closer look

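Listed are values for which 1 extreme array was separated from its nearest neighbour by a larger share of the whole range than Dixon's test allows. Chance gives about 1 such group in 20. Among the 7 member probes, the deposited intensity of 2 met this, Thbs1 (ratio 0.798) and Thbs2 (0.79), both highest on replicate 1. On the log2 scale none of the 5 measured members and none of the 10 ratios between them met it. The summed intensity of the array was itself outlying and highest on replicate 1 (0.855). Of 36 other named genes, 8 had an outlying level, each on replicate 1. These were Itgb1 (0.693), Lamc1 (0.782), Myh7 (0.729), Myh1 (0.638), Csf2ra (0.779), Ywhaz (0.627) and Myh2 (0.659), all highest there, and Flt1 (0.824), lowest there. Itgb1, Csf2ra, Ywhaz and Myh2 were among the genes nearest to Thbs1 or Thbs2, which were picked by their pattern over these arrays. The share of all probes that met the rule was not computed, either for deposited intensities or for levels. Neither the 2 of 7 member probes nor the 8 of 36 genes is therefore set against a background. Deposited intensities also do not allow for array brightness, so the 2 of 7 is not shown to be particular to the thrombospondins.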

How the results depend on the processing

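The count of measured members was 5 under the stricter detection rule, which left 134 of 223 probes. Leaving out 1 array could not change the count, since Thbs3 was above 0 on 3 arrays and probe 4D on 1. No member pair passed the adjusted threshold under any of the scalings, where the need for at least 404 pairs to pass together also holds. With 5 arrays the smallest exact p is 0.0083 and 2423 of the pairs would have to reach it for any to pass, so the counts of 0 with an array left out say nothing about stability. Pairs with an unadjusted exact p under 0.05 numbered 0 to 4, with 4 when arrays were not centred. Which pairs these were changed with the scaling. With equal totals they were Thbs2 and Tnc (exact permutation p = 0.0069), Tnc and Tnxb (0.0361) and Thbs2 and Tnxb (0.0458). Thbs1 and Thbs2 were then at 0.0569. Over the scalings other than median centring, r was 0.80 to 0.95 for Thbs1 and Thbs2 and -0.99 to -0.74 for Thbs2 and Tnc. The share over all pairs, 11.7%, is for median centring with all arrays, so the counts under other settings have no background beside them. The replicate 1 difference changed sign for Tnxb without centring (0.21) and for Fn1 with the reference genes (-0.23). Both settings only shift whole arrays, which cannot change the differences relative to the median of all measured probes (-0.43 and 0.48). Of the 15 nearest genes, 8 stayed with quantile normalization and 4 without replicate 1. With an array left out, the SD ran from 0.29 to 0.63 for Thbs1, 0.49 to 1.01 for Thbs2, 0.39 to 0.75 for Tnc, 0.20 to 0.29 for Tnxb and 0.29 to 0.48 for Fn1. The correlation of the Fn1 probes was not run, because probe 4D has no log2 value on 5 arrays. No paired analysis was possible because there is 1 group. Signals near background limit Thbs3 and probe 4D, and low intensities limit the spread given for Thbs2.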
